A study of Mus musculus with 12 samples.

Results

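Synaptic vesicle fusion genes were taken here as the genes named Syt, Stx, Vamp, Snap, Stxbp or Cplx with a number (with the letters a or b allowed for Stx), as listed in the gene models of this study of the mouse nucleus accumbens (NAc). The name rule found 52 genes among 22507 gene names with at least 1 protein identifier. They were 17 synaptotagmins (Syt1 to Syt17), 15 syntaxins (among them Stx1a, Stx2, Stx3, Stx4a, Stx5a, Stx6, Stx7, Stx8, Stx11, Stx12, Stx16, Stx17, Stx18 and Stx19), 6 Vamp genes (Vamp1, Vamp2, Vamp3, Vamp4, Vamp5 and Vamp8), 5 Snap genes (Snap23, Snap25, Snap29, Snap47 and Snap91), 5 syntaxin-binding genes (among them Stxbp2, Stxbp4, Stxbp5 and Stxbp6) and 4 complexins (Cplx1 to Cplx4). Each stood at 1 locus of its own, with no other gene name at that locus. Snap91 matched by its name but encodes the clathrin adaptor AP180, which acts in vesicle retrieval and not in fusion.

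Polyadenylated RNA was sequenced from the NAc, a reward region in the ventral striatum, of C57BL/6 mice labelled 8 to 10 weeks old, with no engineered allele named. The 12 samples formed 4 groups of 3 pools. The repeated cocaine group received 20 mg/kg i.p. daily for 7 days and was set against 7 days of saline. The acute cocaine group received 6 days of saline and then 1 day of cocaine at 20 mg/kg. It was set against the saline group of the acute experiment, which received 7 days of saline. Tissue was taken 24 h after the last injection, and the labels give 3 to 5 animals per pool. The file analysed is the set of gene models on the mm9 build with which reads were summarised. It holds exons, transcripts, start groups and protein identifiers but no level of any gene in any pool. The values below are therefore structures and lengths without replicate error, no cocaine and saline groups could be compared, and the NAc label could not be checked against marker genes. Read depth per pool cannot be read from the file.

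A synaptic vesicle fuses when the vesicle SNARE protein synaptobrevin (Vamp1 or Vamp2) zips together with a syntaxin such as Stx1a and with Snap25 on the plasma membrane. Some synaptotagmins, such as Syt1, sense calcium through a pair of C2 domains. Complexins hold and then help the assembled SNARE bundle, and proteins of the Munc18 family hold syntaxin and guide assembly. Tomosyn (Stxbp5) carries a SNARE-like stretch that competes with synaptobrevin. Other syntaxins and Vamp genes serve fusion at the Golgi, endosomes and other membranes.

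The exons that changed the protein most plainly are shown first. Snap25 (chr2:136539189-136608164, plus strand) had the only strictly mutually exclusive pair among the 52 genes, a pair of 118-base exons of which each coding transcript used 1. A mutually exclusive pair was found in 0.778% of all coding genes. The upstream exon lies at chr2:136595479-136595596 and the downstream exon at chr2:136595793-136595910, and capitals mark the 31 positions at which they differ. They were 73.7% identical.
Snap25 upstream exon: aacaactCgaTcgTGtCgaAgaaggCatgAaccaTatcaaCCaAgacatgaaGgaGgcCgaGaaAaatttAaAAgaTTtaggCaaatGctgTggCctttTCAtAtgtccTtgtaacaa
Snap25 downstream exon: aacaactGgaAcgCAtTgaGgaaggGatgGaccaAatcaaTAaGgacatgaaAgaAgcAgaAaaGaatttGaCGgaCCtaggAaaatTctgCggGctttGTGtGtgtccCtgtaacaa
Both coding transcripts encoded 206 residues and started in 1 TSS group. The encoded proteins differed at 9 residues, between residue 58 and residue 89. The remaining Snap25 transcript was a retained-intron model of 3 exons without a protein identifier.

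Stx3 (chr19:11849609-11893893, minus strand), a syntaxin known from ribbon synapses and epithelia, had a pair of the same kind that opened alternative ends. Exons of 111 bases at chr19:11857516-11857626 and chr19:11857290-11857400 followed the same 135-base exon. Each led into an internal exon and last exon of its own, so the pair did not meet the strict definition, which requires a shared next exon. The exons differed at 43 positions, in capitals, and were 61.3% identical.
Stx3 upstream exon: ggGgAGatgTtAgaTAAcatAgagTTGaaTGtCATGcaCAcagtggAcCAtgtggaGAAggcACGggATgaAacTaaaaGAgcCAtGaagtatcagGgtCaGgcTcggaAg
Stx3 downstream exon: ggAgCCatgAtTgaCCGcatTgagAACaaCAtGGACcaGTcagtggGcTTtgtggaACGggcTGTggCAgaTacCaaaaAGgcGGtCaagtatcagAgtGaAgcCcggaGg
Compared between the 11-exon transcripts of 289 and 287 residues, the proteins shared their first 226 residues. They then ran for 63 residues with the upstream exon and 61 with the downstream exon. Apart from Snap25, no other member had a pair of equal-length internal exons that followed 1 shared exon and never occurred together. A further Stx3 transcript of 269 residues skipped a 100-base exon near the N terminus and used a 46-base exon in its place, while another used both.

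**Figure D1:**
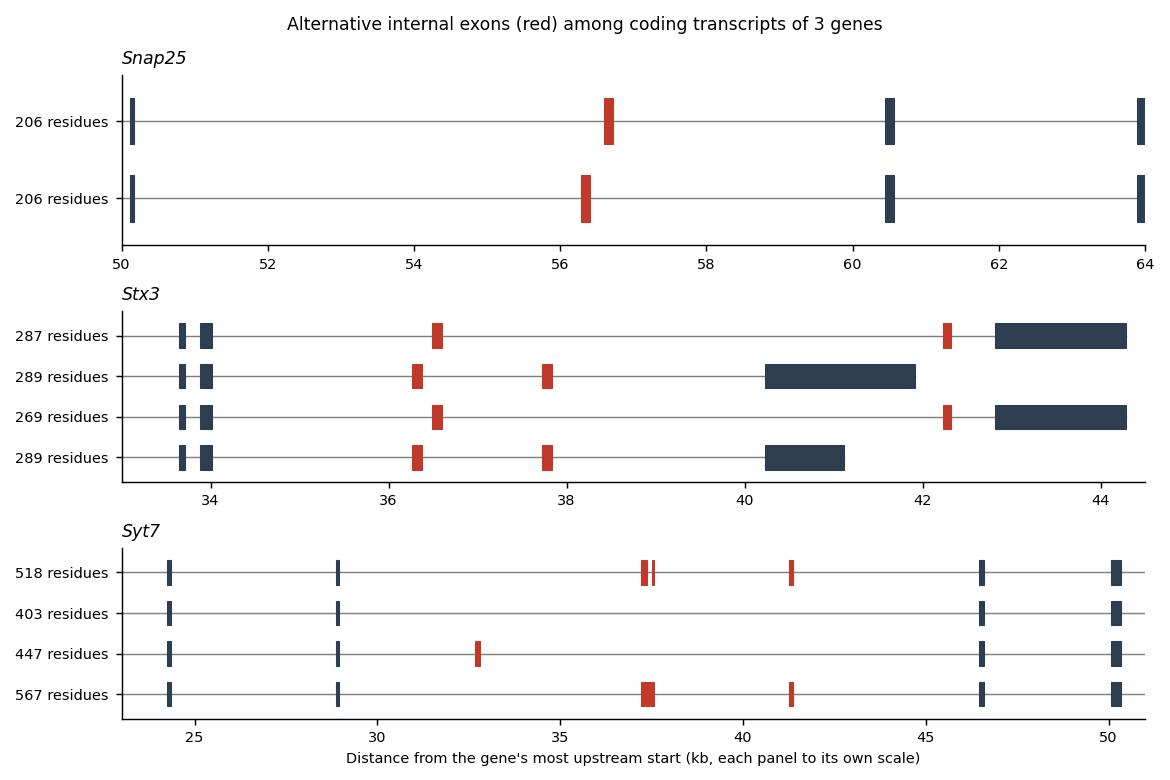
Exons of the coding transcripts of Snap25, Stx3 and Syt7 by distance from the gene's most upstream start (kb, to scale in each panel); internal exons that some coding transcripts lack are red and other exons dark, and each row is 1 transcript named by its number of residues. Snap25 swaps 118-base exons and Stx3 swaps 111-base exons with different ends, and Syt7 varies in the stretch before its 136-base exon.

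The 52 genes had 218 transcripts. The median gene had 3.5 transcripts, against 2 for all coding genes. Of the members, 40 had 2 or more transcripts, which is 76.9% beside 57.0% of all coding genes. The fixed list of 46 other release and trafficking genes (among them Unc13a, Rims1, Nsf, Syn1, Syp, Bsn and Sec22b) also had a median of 3.5, and 41 of the 46 (89.1%) had more than 1 transcript. The number of transcripts differed between families. Complexins had a median of 1, synaptotagmins 3, syntaxins 4, Vamp genes 4, Snap genes 5 and Stxbp genes 7.

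Stxbp2, which encodes Munc18-2, known from granule release in blood cells, had the most transcripts, 14. Of those only 2 carried a protein identifier. Stxbp5 and Syt8 followed with 10 transcripts, each with 5 that carried a protein identifier. Snap23, the widely expressed relative of Snap25, and Stx4a, a widely expressed plasma membrane syntaxin, had 9 each, and Snap47 had 8. Genes with 1 transcript were Syt2, Syt4, Syt5, Syt10, Syt13, Syt17, Stx7, Stx19, Snap29, Cplx2, Cplx3 and Cplx4, 12 in all. The release genes ranged widely. Syt2 and Cplx2 had 1 transcript, Cplx1 had 2, and Snap25 had 3. Syt7 had 4, Syt9, Stx1a and Vamp1 had 5, Syt1 and Vamp2 had 6, and Stxbp5 had 10.

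Of the 218 transcripts, 149 (68.3%) had a protein identifier and 69 had none, close to the 69.8% over all coding genes. In GENCODE M1, an annotation of the same build, 217 of the 218 were listed, all with the same exons. The listed types were 139 protein coding, 9 nonsense-mediated decay, 42 retained intron and 27 processed transcript. All of the last 2 types lacked a protein identifier. Transcripts with a protein identifier had a median of 2096 bases and 8 exons, while those without had 717 bases and 3 exons. Several coding models are incomplete as well. The shortest of Snap47 holds 26 bases of coding sequence (CDS), that of Syt3 holds 81, and the shorter Cplx1 model holds 230, a number not divisible by 3.

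**Figure D2:**
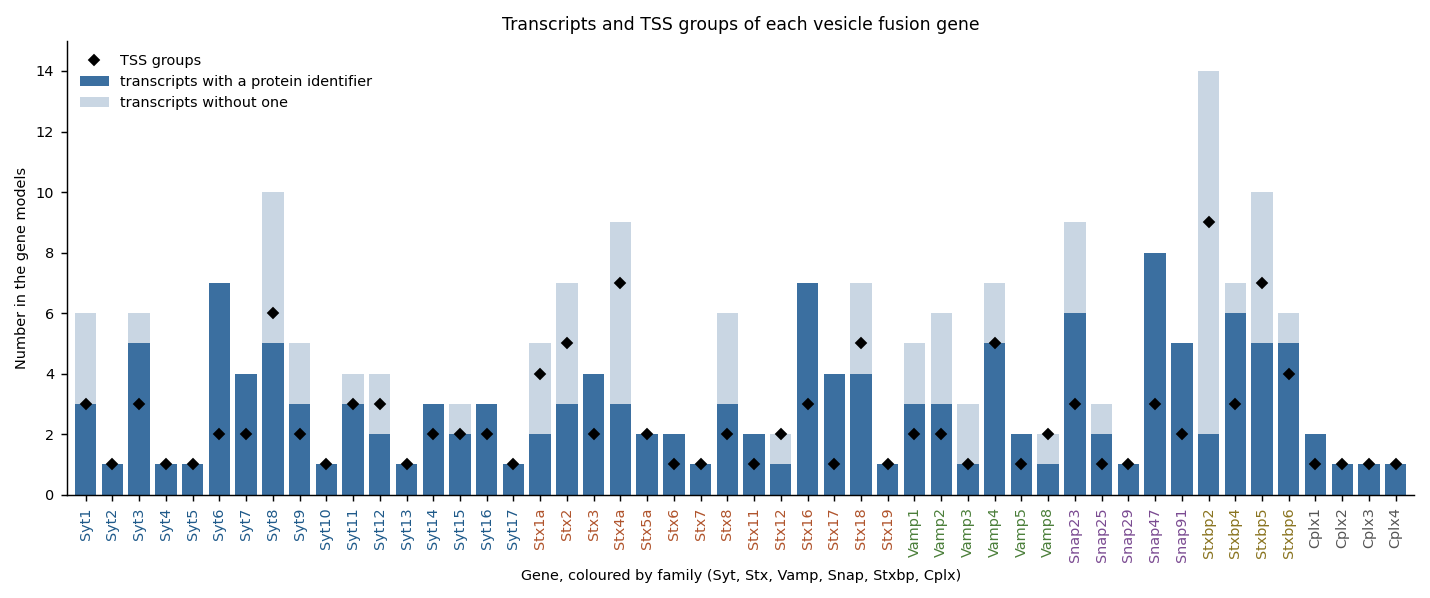
Number of transcripts (bars, dark for those with a protein identifier and light for those without) and TSS groups (diamonds) for each gene shown, in family order. Stxbp2 stands highest with 14 transcripts and 9 TSS groups, of which only 2 transcripts have a protein identifier, while all 4 complexins have at most 2 transcripts.

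Start sites were read from TSS groups, sets of transcripts of 1 gene that the Cufflinks package treats as starting at the same place, and the unit in which promoter use was compared in this study. The members had 127 TSS groups, with a median of 2 against 1 for all coding genes. Within a group the first bases lay at most 97 bases apart. Of the 52 genes, 33 (63.5%) had 2 or more groups, beside 43.7% of all coding genes. Among genes with 2 or more transcripts the shares were 82.5% of 40 members and 76.7% of 12830 genes.

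Of the 127 groups, 41 held no transcript with a protein identifier, and 38 of those 41 held 1 transcript. Such groups occurred in 19 of the 52 genes (36.5%), beside 27.7% of all coding genes. Among genes with 2 or more transcripts the shares were 47.5% of members and 48.6% of genes, so the members were not higher there. The 69 transcripts without a protein identifier began inside an exon of a coding transcript of the same gene in 38 cases, inside an intron in 26 and outside coding transcripts in 5. Stxbp2 had 9 TSS groups, of which 2 held coding transcripts. Stx4a and Stxbp5 had 7 groups each, with 2 and 3 coding ones, and Syt8 had 6 with 3. Stx2 and Stx18 had 5 with 2, and Vamp4, a Golgi and endosomal SNARE, had 5 with 4. Stx1a, the neuronal plasma membrane syntaxin, had 4 groups but only 1 coding group. Its other 3 groups began 14029, 17578 and 17784 bases downstream.

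The most upstream group had no protein identifier in 3 genes, Syt8, Syt15 and Stx4a. In Stx4a that first start lay 17470 bases before the first coding start. Among the members, 10 shared exonic bases with another gene, each on the opposite strand, and none on the same strand. Examples are Stx18 with Nsg1 (573 bases) and Snap47 with Jmjd4 (307 bases). Position alone does not assign a read within these shared bases to 1 gene unless strand was recorded. No strand-marking step is named in the sources used here.

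Leaving out groups without a protein identifier, 24 genes had 2 or more coding TSS groups. These genes had 34 coding groups after the first, at a median distance of 727 bases. Of the 34, 20 lay within 1000 bases of the first coding group and 7 lay 10000 bases or more downstream, in 6 genes. Among the 6 genes were Syt16 (224820 bases), Stxbp5 (102882), Stxbp4 (89174), Syt11 (80246 and 57133) and Syt14 (48377). Short distances were found for Vamp4 (313, 322 and 711 bases), Stx16 (614 and 743), Stx3 (478), Syt7 (393) and Snap91 (240). By GENCODE M1, 12 of the 24 genes with several coding groups had 1 CDS start over all their transcripts and the other 12 had 2 or more, among them all 6 genes with a distant coding group. Over all 52 members, 39 had 1 CDS start and 13 had 2 or more. CDS ends varied more often, with 28 genes having 2 or more and 24 having 1. A CDS start or end here is the outermost CDS base of a model, so an incomplete model can add 1 at its edge. Models listed for nonsense-mediated decay were counted too. Stx1a, with 1 protein coding transcript, reached 2 CDS ends through such a model. The distant coding models of Stxbp5 (791 CDS bases) and Stxbp4 (460) have lengths not divisible by 3.

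Syt1, the main calcium sensor for fast release in forebrain, had the widest spread of starts. The gene spanned 513333 bases (chr10:107934706-108448038, minus strand), the most of any member, with an intron of 140042 bases. It had 3 TSS groups. The first held both full-length transcripts of 421 residues and a retained-intron model, and the second, 1871 bases on, held an incomplete coding model. The third began 374018 bases downstream and held 1 retained-intron model of 717 bases. The full-length transcripts differed by an 80-base cassette exon at chr10:108430894-108430973, which lies outside the CDS, so both encoded the same protein. A cassette exon is an internal exon that another transcript of the gene skips with the same flanking exon boundaries. Syt16 followed in start spread with 224820 bases, Syt9 with 133368, Stxbp5 with 130558 and Stx18 with 95653. In Syt9 the distant group held only retained-intron models.

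**Figure D3:**
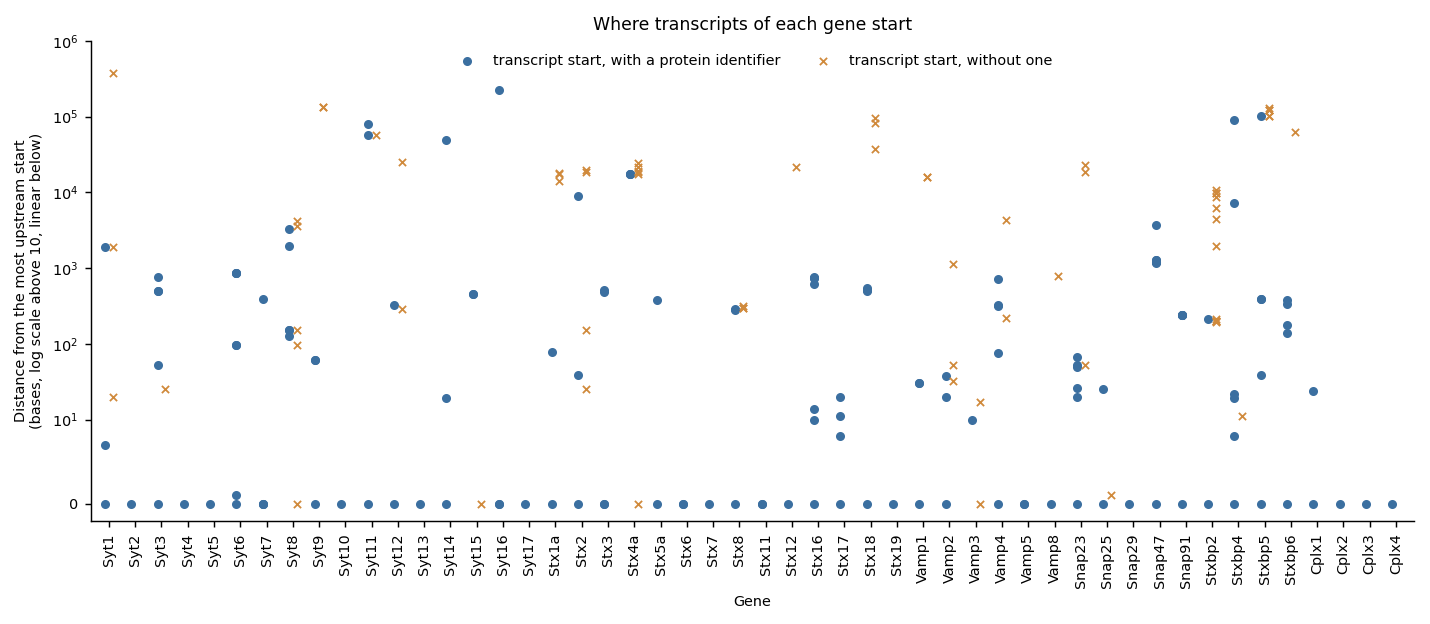
Distance of each transcript's first base from the most upstream start of its gene (bases, log scale above 10), for transcripts with a protein identifier (circles) and without (crosses). Crosses make up the distant starts of Syt1 (374018 bases) and Syt9 (133368 bases), while the distant start of Syt16 (224820 bases) belongs to a coding transcript.

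Sequence at the most upstream start was read from 250 bases before it to 50 after. The following letters were searched on both strands. TATAAA (the TATA box) was in 4 of 52 windows (7.69%), beside 13.6% of 22502 coding genes. TGACGTCA, the full cyclic AMP response element (CRE) bound by CREB, was in 2 (3.85%), beside 2.30%. CCGCCCCC or its reverse GGGGGCGG, a GC box, was in 11 (21.2%), beside 14.1%. CpG dinucleotides numbered 16.5 per window at the median (quartiles 9 and 27), against 11 (3 and 23) for all coding genes. Among members, Stxbp5 had 45, Syt9 had 44 and Vamp3 had 42, while Syt1 had 8 and Cplx2 had 5. The CpG count depended on the start chosen. At the start of the transcript with the most exons it was 33 in place of 8 for Stx3. It was 25 in place of 4 for Snap47 and 29 in place of 9 for Syt11. It was lower for Stx16 (13 in place of 19) and Snap23 (24 in place of 25).

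Snap25 was the only member with all 3 sets of letters, and Vamp3, which encodes cellubrevin, was the other one with a CRE. The 250 bases before their starts are printed for that reason, 5′ to 3′ along the gene, with the matched letters in capitals. The Snap25 stretch is chr2:136538939-136539188 on the plus strand, with the CRE 18 bases and the GC box 101 bases before the start. The TATA letters began 185 bases before it and overlapped a match on the other strand at 187. The Vamp3 stretch is chr4:150432073-150432322 on the minus strand, with the CRE 8 bases before the start. A match describes these letters only.
Snap25: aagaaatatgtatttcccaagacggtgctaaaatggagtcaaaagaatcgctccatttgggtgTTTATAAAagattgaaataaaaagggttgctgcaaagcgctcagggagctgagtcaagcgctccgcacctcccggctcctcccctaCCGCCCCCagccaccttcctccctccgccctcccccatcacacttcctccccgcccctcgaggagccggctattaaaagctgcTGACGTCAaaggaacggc
Vamp3: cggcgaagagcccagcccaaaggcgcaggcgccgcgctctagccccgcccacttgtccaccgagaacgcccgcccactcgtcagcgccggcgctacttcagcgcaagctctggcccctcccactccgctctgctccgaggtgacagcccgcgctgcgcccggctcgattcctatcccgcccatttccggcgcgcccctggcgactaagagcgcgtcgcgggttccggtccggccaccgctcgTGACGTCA

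Cassette exons were found in 20 of the 52 genes (38.5%), beside 26.8% of all coding genes. Among genes with 2 or more transcripts it was 20 of 40 members, and 46.9% of 12830 genes. The 20 genes held 39 cassette exons, with the highest numbers in Stxbp2 (5), Snap23 (4), Snap91 (4) and Stxbp5 (3). None of those in Stxbp2 was both included and skipped by transcripts with a protein identifier. Versions of an exon that differ at 1 boundary were counted separately. These were 82 and 101 bases in Stxbp2, 50 and 121 in Snap47, and 46 and 51 in Stxbp5. No Vamp gene and no complexin had one. The median length was 84 bases, against 104 for the 10823 cassette exons of all coding genes. Of the 39, 18 had a length divisible by 3, which is 46.2% (95% Wilson interval 31.6 to 61.4, counting error only), and the share over all coding genes was 51.4%.

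By position, the share divisible by 3 inside the CDS was 14 of 22 exons (63.6%, Wilson interval 43.0 to 80.3), beside 61.1% of such exons in all coding genes. For exons partly in the CDS it was 3 of 6 (Wilson interval 18.8 to 81.2). Outside the CDS it was 1 of 7 (Wilson interval 2.57 to 51.3), and in transcripts with no CDS it was 0 of 4 (Wilson interval up to 49.0%). Where both the including and the skipping transcript had a protein identifier it was 16 of 29 (55.2%), beside 58.7% over all coding genes. Exons inside the CDS with a length divisible by 3 included 51 and 84 bases in Stxbp5, 132 in Syt7, 57 in Syt14, 12 and 144 in Stx16, 66 in Stx17 and 84, 84, 15 and 6 in Snap91. Exons inside the CDS whose length is not divisible by 3 included 352 and 547 bases in Syt9. The Syt9 transcript without the 547-base exon is listed as a target of nonsense-mediated decay.

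**Figure D4:**
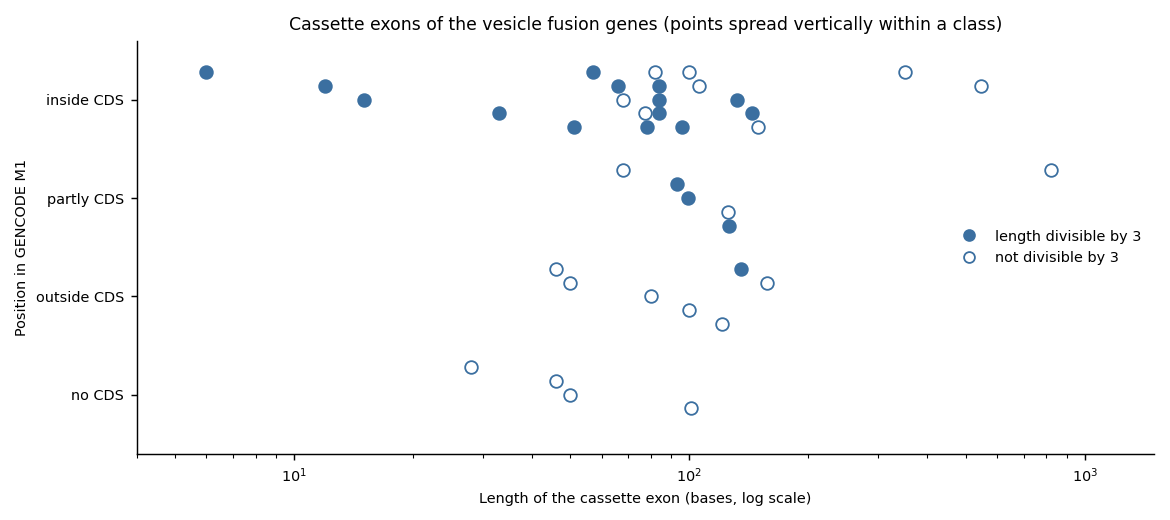
Length of each of the 39 cassette exons (bases, log scale) by its position relative to the CDS in GENCODE M1, filled where the length is divisible by 3 and open where it is not. Filled points are 14 of the 22 exons inside the CDS, 3 of the 6 partly in it, 1 of the 7 outside it and 0 of the 4 in transcripts with no CDS.

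Syt7, a high-affinity calcium sensor tied to slower release and to vesicle replenishment, varied in the linker between the membrane anchor and the C2 domains. Its 4 transcripts encoded 403, 447, 518 and 567 residues with the same CDS start and the same CDS end. The 403-residue form joined the 80-base exon directly to the 136-base exon. The 447-residue form added the 132-base cassette (chr19:10496247-10496378), and the 567-residue form added exons of 369 and 123 bases in its place. In the 518-residue form the 369-base exon was split into 165 and 57 bases. The gap between them is 147 bases and begins with CC in place of GT, letters outside the usual splice pattern. All added lengths are divisible by 3. Stxbp5, or tomosyn, had 4 long forms of 1099, 1116, 1152 and 1155 residues that also differed by internal exons. With the same flanking boundaries, its 84-base exon was included by 1 transcript and skipped by 5, and its 51-base exon was included by 2 and skipped by 1. Counted without regard to the flanks, 3 of the 10 transcripts held the 51-base exon.

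Vamp1 and Vamp2, the vesicle SNAREs, had no cassette exon and no alternative splice site, and their listed proteins differed only at the C-terminal end. Vamp1 (chr6:125165569-125194561) encoded 118, 117 and 171 residues. The forms shared the 127- and 159-base exons and the first 52 bases of the next. The 118-residue form ended in an exon 4499 bases from the start with 14 CDS bases, and the 117-residue form read on past the 52 bases and stopped within that exon. The 171-residue form jumped to an exon 24784 bases from the start with 173 CDS bases. Vamp2 had the same plan, with 116 residues when the 52-base exon was spliced to a last exon with 14 CDS bases and 163 residues when it was read through. Another Vamp2 model ended in an exon of 14 bases located 20493 bases from the start, and is the 1 member transcript that GENCODE M1 does not list. With it Vamp2 spanned 20507 bases, and without it 3895 bases.

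Stx2, a widely expressed plasma membrane syntaxin, also changed its end. A 125-base cassette at chr5:129493593-129493717 held the last 78 CDS bases of the 289-residue form, and without it 75 bases of the last exon closed a 288-residue form. Stx1a had 1 coding form of 288 residues, and an acceptor 83 bases upstream gave a form listed for nonsense-mediated decay. Cplx1 and Cplx2, the main neuronal complexins, each encoded 134 residues in their full form, and the second, incomplete Cplx1 model used a donor 26 bases upstream. More than 1 last exon was found in 32 of the 52 genes (61.5%), beside 42.6% of all coding genes. Among genes with 2 or more transcripts the shares were 80.0% of members and 74.7% of genes, and the highest numbers were in Stxbp2 (8) and Stxbp4 (7).

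The remaining genes with several transcripts differed in which end varied. Snap47 had 8 transcripts, all with a protein identifier, and 8 different CDS ends from 1 CDS start, with the longest CDS at 1239 bases. Stxbp4, or synip, had 6 coding transcripts with 6 CDS ends and 7 last exons over 161593 bases. Several of the CDS ends of these genes may be edges of incomplete models. CDS lengths of 550, 544, 187 and 26 bases in Snap47 are not divisible by 3. Nor are those of 1601, 460 and 92 bases in Stxbp4. Syt11 showed the opposite pattern, with 3 CDS starts and 1 CDS end among its 3 coding transcripts, and Syt16 did so too with 3 starts and 1 end. Vamp4 had 4 coding TSS groups within 711 bases. All of its protein coding transcripts had a CDS of 423 bases, with 1 CDS start, 2 CDS ends and 2 protein identifiers. In Stx4a and Stx5a, both protein coding transcripts had CDS of the same length (894 and 1065 bases) although they began in different TSS groups. Stx11 had an optional 135-base exon before its CDS, which stayed at 861 bases. Snap23 had 4 cassette exons, of which those of 157 and 100 bases lay before the CDS, and the 33-base exon raised the CDS from 630 to 663 bases.

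The genes spanned 5481 bases (Vamp8) to 513333 bases (Syt1), with a median of 31.5 kb, longer than the 15048 bases for all coding genes. Among genes with 2 or more transcripts the medians were closer, 32.6 kb for members and 26.4 kb for all such genes. The fixed list of other release and trafficking genes had a median of 52.2 kb. Synaptotagmins had a median span of 59.5 kb and Vamp genes 16.5 kb. The members lay on 18 chromosomes. Vamp5 and Vamp8 were neighbours on chromosome 6, on the same strand and 4754 bases apart.

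Alternative acceptors were found in 15 genes (28.8%), beside 15.7% of all coding genes, and alternative donors in 7 (13.5%), beside 10.9%. Among genes with 2 or more transcripts, acceptors were found in 37.5% of members and 27.6% of genes, and donors in 17.5% of members and 19.2% of genes. The 19 acceptor pairs differed by 3 to 176 bases, 8 of them by a number divisible by 3, and the 9 donor pairs by 8 to 124 bases, 1 of them by such a number. Retained introns were found in 12 genes (23.1%), beside 19.1%, but among genes with 2 or more transcripts the members had the lower share, 12 of 40 against 33.4%. Acceptor pairs that differ by whole codons, up to 9 bases, are printed with the bases between the 2 acceptors in capitals, 25 bases of intron before and 10 after.
Syt1 (chr10:108073711-108073754, minus): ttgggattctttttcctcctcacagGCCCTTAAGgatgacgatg
Syt14 (chr1:194813067-194813104, minus): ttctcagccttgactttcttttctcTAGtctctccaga
Stx16 (chr2:173916088-173916131, plus): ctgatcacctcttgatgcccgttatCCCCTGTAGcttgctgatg
Stxbp2 (chr8:3641870-3641907, plus): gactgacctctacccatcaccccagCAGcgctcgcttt
Stxbp5 (chr10:9490469-9490512, minus): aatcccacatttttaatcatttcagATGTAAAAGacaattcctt
In Syt1, Stxbp2 and Stxbp5 an AG preceded both acceptors. In Syt14 and Stx16 the upstream acceptor did not follow AG, and these were the only 2 of the 19 pairs for which that held. The shorter Syt1 exon (114 against 123 bases) occurred in the incomplete coding model only.

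Microexons, internal exons of at most 27 bases, numbered 9 in 6 genes (11.5%), beside 7.48% of all coding genes. Among genes with 2 or more transcripts the shares were 12.5% of members and 11.4% of genes. In the fixed list of other release and trafficking genes, 15 of 46 genes had one (32.6%). The 9 exons are printed in capitals with 20 bases of flank on each side.
Stx16, 6 bases (chr2:173908857-173908862): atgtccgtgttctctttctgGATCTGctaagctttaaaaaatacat
Stx16, 12 bases (chr2:173910147-173910158): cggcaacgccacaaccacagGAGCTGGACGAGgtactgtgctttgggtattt
Stx16, 6 bases (chr2:173910556-173910561): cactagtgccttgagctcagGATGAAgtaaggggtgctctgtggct
Stxbp5, 21 bases (chr10:9498241-9498261): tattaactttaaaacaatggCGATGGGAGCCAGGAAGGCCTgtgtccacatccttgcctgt
Syt16, 8 bases (chr12:75333595-75333602): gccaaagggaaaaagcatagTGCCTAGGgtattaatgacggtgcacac
Syt17, 18 bases (chr7:125586633-125586650): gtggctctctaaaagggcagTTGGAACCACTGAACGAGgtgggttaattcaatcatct
Snap47, 20 bases (chr11:59258783-59258802): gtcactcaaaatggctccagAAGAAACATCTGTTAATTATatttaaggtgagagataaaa
Snap91, 15 bases (chr9:86693665-86693679): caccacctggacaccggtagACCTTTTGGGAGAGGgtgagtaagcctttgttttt
Snap91, 6 bases (chr9:86707915-86707920): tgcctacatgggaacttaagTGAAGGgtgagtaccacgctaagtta
Of the 9, 6 had AG before and GT after, and 7 had a length divisible by 3. Both held for 5, namely the 12-base and the second 6-base exon of Stx16, the Syt17 exon and the pair in Snap91. The first 6-base exon of Stx16 had neither splice letter pair, the Stxbp5 exon lacked AG before it and the Snap47 exon lacked GT after it. The Syt17 exon was in the 1 transcript of its gene, and the other 8 were in some transcripts only. Stx16, a syntaxin of the trans-Golgi network, used its 12-base exon in 3 of 7 transcripts, and 1 transcript carried both 6-base exons instead.

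Splice letters elsewhere followed the usual pattern. Of 564 introns of the members, 550 (97.5%) began with GT and ended with AG, and 3 began with GC, beside 97.3% GT to AG over all coding genes. Stx6 had 1 intron with AT and AC ends, the letters of a minor class of introns, in both of its transcripts. Gaps too short for an intron occurred in Snap91 (5 bases, in 3 transcripts) and Stxbp6 (36 bases, in 1).

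Motifs of the RBFOX proteins, neuronal splicing factors that include A2BP1, were counted as TGCATG within 150 intronic bases on either side of a cassette exon. They stood beside 5 of the 39 exons (12.8%), and the share over all coding genes was 12.8%. They included 1 of the 84-base exons of Snap91, with the motif upstream, and exons of Snap23 (93 bases), Syt8 (106 bases) and Stxbp2 (149 bases), with it downstream. The Snap23 exon was included only by models listed for nonsense-mediated decay or as retained introns. Those of Syt8 and Stxbp2 were skipped only by transcripts without a protein identifier. Snap23 had 2 adjoining copies 25 and 31 bases downstream. The first is shown in capitals with 12 bases on either side.
Snap23, 25 bases downstream: atggctttcctgTGCATGtgcatggattct

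Exon lengths were compared between members, with families taken as groups of shared name. Such names largely follow sequence relatedness, so lengths shared within a family are not independent of the choice of genes. In the transcript with the longest CDS of each gene, 24 of 282 pairs of genes from the same family (8.51%) shared a run of 2 or more neighbouring internal exons of the same length, and 0 of 1044 pairs from different families did. Stx1a and Stx2 shared a run of 8 exons (78, 100, 75, 74, 109, 74, 138 and 111 bases). Stx3 kept 5 of these lengths in order. Snap23 and Snap25 shared 42, 49 and 118 bases, so that the length of the swapped Snap25 exon had a counterpart in Snap23, which had no strict pair. Syt1, Syt2 and Syt5 shared 168, 168, 118 and 134 bases, the last internal exons. Syt9 and Syt10 shared another set, 121, 172 and 130 bases.

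**Figure D5:**
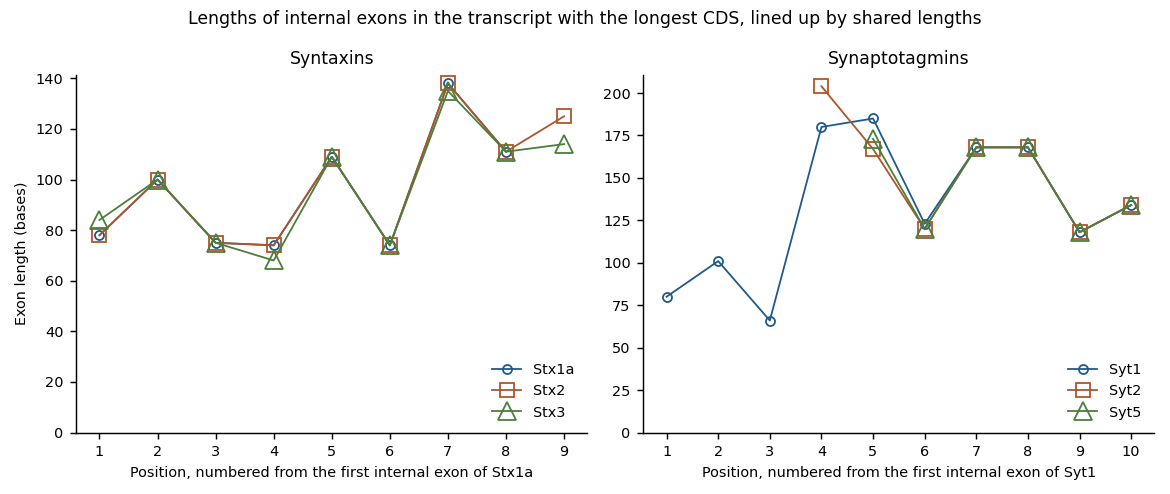
Length (bases) of each internal exon in the transcript with the longest CDS for syntaxins and synaptotagmins, with genes lined up by their longest shared run and numbered from the first internal exon of the first gene in each panel. Stx1a and Stx2 overlie each other from the 78-base to the 111-base exon, and Syt1, Syt2 and Syt5 meet over the last 4 exons.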

How the data were processed

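RNA-seq libraries of 12 NAc pools were aligned and summarised by the study with TopHat, Cufflinks and Cuffdiff (the submitters' processing notes also list CASAVA, which the study's methods name for ChIP-seq), with versions not given in the sources used here, against Ensembl models of NCBIM37 (mm9). The deposited file holds 624665 exons of 87740 transcripts, with no pool of origin. The positions in it are base numbers on the genome, and it has no signal, ratio or count for any pool, so no level was tested.

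Genes were selected by name. The members, the list of other pathway genes and the events were chosen with earlier results of these data known. A transcript was taken as coding where it had a protein identifier. Cassette and mutually exclusive exons, alternative acceptors and donors, retained introns, last exons, microexons (up to 27 bases) and TSS groups were counted per gene name, over 22507 coding genes and over the members. CDS and transcript types came from GENCODE M1, and sequences from the mm9 genome; 22 of 22 chromosome names matched and no exon ended beyond its chromosome. Motif flanks were 150 intronic bases. Named in full were core release genes, the 2 genes with the most transcripts per family, the 5 with the most TSS groups, start spread or cassette exons, and all with a mutually exclusive pair or microexon. Shared exon lengths and splice letters were added after the data were seen. Alternatives changed the transcripts, start definition, event definitions, motif and window. The event definitions, the merging of starts and the reverse complement were tested on made-up gene models or letters, with 10 of 10 tests passed. The CDS, promoter, motif and shared-length steps were not tested in that way. Protein identity within families was not analysed here. Some members enter the counts but are not reported here by name or shown in plots by gene. Python 3.11.15, numpy, scipy, pysam and matplotlib were used.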

Additional observations from a re-analysis of the deposited data

How the results depend on the processing

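The counts of members, transcripts, last exons and promoter letters kept within 1.5 times of the reported values under every alternative tried for them, as did all counts without Snap91. Counting distinct first bases gave 194 starts in place of 127 TSS groups. Letting any spanning intron skip an exon gave 82 cassette exons in place of 39, and allowing transcripts with both or neither exon gave 4 mutually exclusive pairs in place of 1. Limiting differences to under 30 bases left 5 alternative donors of 9, and a limit of 51 bases gave 41 microexons in place of 9. With 300 flanking bases the RBFOX motif stood beside 28.2% of the members' cassette exons (21.7% over all coding genes) in place of 12.8%, while with the shorter letters GCATG the members had the lower share, 20.5% against 27.8%. Among alternatives chosen after seeing the data, runs of 3 or more exons left 9 pairs of genes of 24, and Vamp2 without the transcript that GENCODE M1 does not list spanned 3895 bases. Why the RBFOX shares moved to different sides of the share over all coding genes was not tested. No paired analysis was possible because the file holds no value per pool. Depth limits nothing that could be measured here, since no level was given.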
